A study of Rattus norvegicus with 12 samples.

Results

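The passage from the inflamed to the scarring ventricle was followed in rats whose left anterior descending coronary artery (LAD) had been occluded for 30 min and then reopened (ischaemia and reperfusion, IR). Ventricles taken after 7 d of reperfusion (7 d IR, 3 arrays) were compared with ventricles taken after 2 d (2 d IR, 3 arrays), chosen by sample title, so that 6 of the 12 arrays of the series carry the comparison. The other 6 arrays, 3 at 7 d and 3 at 2 d, came from sham rats, whose artery was not occluded; they show how far transcripts moved over the same days after surgery alone. The sources used here give no strain, sex, age or infarct size for any group, and do not say which region of the ventricle was taken or how much of it was scar. Nothing in them says more of the replicates than that they are separate samples (here named by group and the number in their title, as 7 d IR 44), so that the p-values measure the spread between these samples. Total RNA was measured with an oligonucleotide array, on which a probe set is a group of short probes that reads 1 transcript; its signal has no absolute unit. All changes are differences of mean log2(signal + 195), 7 d minus 2 d, given as log2 change with the standard error (SE) of the fit and n = 3 arrays a group; the offset understates changes of dim transcripts.

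A reperfused infarct heals in overlapping stages. Dying muscle cells first draw in neutrophils and monocytes, guided by chemokines and cytokines, and the macrophages that follow clear the debris and release factors such as osteopontin. Fibroblasts then divide, move into the wound and lay down matrix: first fibronectin and matricellular proteins, which steer cells rather than bear load, then fibrillar collagens that are trimmed, bundled by small proteoglycans and cross-linked by lysyl oxidases into a scar. Metalloproteinases, which cut matrix proteins, and their inhibitors keep remodelling that matrix.

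Upstream sequences of 3 of the most changed transcripts are shown to place the genes before their values: Spp1 (osteopontin) and Mt2A (a metallothionein, which binds zinc and copper), both lower at 7 d, and Postn (periostin, a matricellular protein of scars), higher at 7 d. Each is the run of 250 bases that ends just before the annotated start of transcription in RefSeq, build GRCr8, read 5′ to 3′ on the gene's own strand. Capitals mark matches to the TATA box (TATAAA), the CCAAT box (CCAAT), the AP-1 motif (TGACTCA), a RUNX motif (AACCNCA) and the core of the metal response element (TGCACNC or TGCGCNC), each searched on both strands; matches of different motifs did not overlap. Spp1 lies on the minus strand at chr14:5619805-5620054, Mt2A on the minus strand at chr19:10838709-10838958 and Postn on the plus strand at chr2:140677811-140678060.
Spp1: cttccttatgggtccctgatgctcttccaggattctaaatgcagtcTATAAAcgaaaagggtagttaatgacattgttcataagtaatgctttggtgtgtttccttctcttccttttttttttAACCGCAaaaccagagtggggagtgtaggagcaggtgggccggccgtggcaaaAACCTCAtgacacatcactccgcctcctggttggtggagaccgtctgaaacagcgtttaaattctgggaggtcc
Mt2A: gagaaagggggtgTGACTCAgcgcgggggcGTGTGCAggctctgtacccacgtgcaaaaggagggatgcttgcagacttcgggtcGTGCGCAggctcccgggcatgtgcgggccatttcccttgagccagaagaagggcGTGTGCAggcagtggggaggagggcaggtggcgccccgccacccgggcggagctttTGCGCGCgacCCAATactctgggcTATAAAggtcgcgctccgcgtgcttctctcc
Postn: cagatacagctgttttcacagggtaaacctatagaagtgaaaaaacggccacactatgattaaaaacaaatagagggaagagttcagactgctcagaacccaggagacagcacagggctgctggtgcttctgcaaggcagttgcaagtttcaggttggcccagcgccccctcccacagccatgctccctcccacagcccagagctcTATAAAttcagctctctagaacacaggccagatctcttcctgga
The Mt2A window held 4 metal response cores; 20.6% of the 33469 upstream windows of this length in the table held at least 1, and 0.266% held 4 or more. It also held TGACTCA, found in 4.05% of windows, CCAAT, found in 34.0%, and TATAAA, found in 12.9%. The Spp1 window held AACCNCA at 2 places, a motif found in 12.9% of windows, and 1 TATAAA at positions -204 to -199 counted back from the start. The Postn window held a single TATAAA at -44 to -39. These matches describe the letters only. The table held a window for 216 of the 290 genes that changed between the days of reperfusion.

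The arrays had been scaled alike, with trimmed means of 1500.4 to 1500.5. The first principal component was taken over the 10527 probe sets tested. On it 2 d IR 69 lay apart from its group, next to the 7 d IR arrays. There 7 d sham 82 also lay apart from its group, among the 2 d sham arrays. Calls described below are marked where they were lost without either array, while list counts without them are given only in part. The log2 ratio of signal at the 3′ over the 5′ end of control transcripts, a measure of RNA quality, was 0.176 ± 0.0574 in 7 d IR and 0.239 ± 0.0697 in 2 d IR for Actb (SD, n = 3 each). It was 0.317 ± 0.0535 and 0.322 ± 0.103 for Gapdh. For hexokinase it was 0.597 ± 0.0786 and 0.863 ± 0.34. Exact two-sided permutation p-values were 0.3, 0.9 and 0.4, where 3 against 3 allows none under 0.1. In sham hearts the Actb ratio was 0.382 to 0.821 at 7 d and 0.128 to 0.310 at 2 d, without overlap. Its part in the sham changes was not tested. Of 31 cardiomyocyte markers on the array, 31 passed the filter on low signal (above the array's 40th percentile on at least 3 arrays). Of 8 lung markers on the array, 4 passed it. Sftpc, a surfactant gene of the lung, read 3195, 501 and 457 on the 7 d IR arrays. On the 2 d IR arrays it read 274 to 682. The high value is that of 7 d IR 44. Limma called 0 lung markers, and 0 had an unadjusted p under 0.05. With 2 d IR 69 and 7 d sham 82 left out, 1 lung marker was called higher.

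Between 2 and 7 d of reperfusion, 363 of 10527 probe sets changed (3.45%; limma, Benjamini-Hochberg adjusted p under 0.05), 258 higher and 105 lower at 7 d. With the brightest probe set standing for each gene, 202 of 7720 genes rose (2.62%) and 88 fell (1.14%), and 100 rose but 13 fell by at least 2-fold. At an unadjusted p under 0.05, 655 of the 7720 genes were higher and 692 lower at 7 d. The median change of all genes was -0.02. The 3 arrays of 1 day lay wholly to 1 side of the 3 of the other in 2156 probe sets (20.5%). Of the genes that rose, 17 passed the filter only with their 7 d IR arrays, among them Tnn, Col5a3, C1qtnf3, Ltbp2, A2m and Tnfrsf11b. Such a gene had to read higher at 7 d, so its call is given as a description. Among the others Lbp, whose product carries bacterial lipopolysaccharide, C3, the central complement protein, and Sfrp2, a Wnt inhibitor, rose most, with log2 changes of 2.75, 2.69 and 2.39. Spp1 fell most of all genes called, by a log2 change of -3.00. The count of 363 was 231, 211 and 241 without 7 d IR 44, 47 and 48, and 192 and 213 without 2 d IR 73 and 76. It was 406 without 2 d IR 69. The gene lists used below were chosen with earlier results of these data known, so their counts and medians are given as descriptions.

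In sham hearts the same days changed 8 probe sets (0.076%; 992 at an unadjusted p under 0.05), a count that was 76 without 7 d sham 82 and 1 to 5 without 7 d IR 47, 2 d IR 73, 7 d sham 80 or 81, or 2 d sham 71, 72 or 74. The change from 2 to 7 d differed between IR and sham hearts in 1 probe set (0.0095%; limma's interaction, 752 at an unadjusted p under 0.05), that of the ribosomal gene Rpl37a. That difference lay in the sham arrays. So no gene was shown to change with days more in IR than in sham hearts, and sham changes stand beside the main results. The IR and sham changes share no array. Among the 202 genes that rose in IR hearts the median change was 0.99 in IR and 0.35 in sham hearts, and 178 of them had a positive sham change; among the 88 that fell, the medians were -0.68 and -0.20, and 79 had a negative sham change. Both sets were chosen by their IR change, so selection enlarges their IR medians. These medians do not show a larger change in IR than in sham hearts. Over all 7720 genes, which are not independent replicates, the changes correlated at r = 0.41. Of all these genes, 3852 had a positive and 3868 a negative sham change.

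Some genes of a phagocyte wound list fell. Of 22 measured genes listed for macrophages that take up debris and lipid, 4 fell and 1 rose. The count that fell was 3 without 2 d IR 69 and 6 without 7 d sham 82. The list's median change was -0.31 in IR and -0.04 in sham hearts. The list is not particular to macrophages, since Cd36 and Lpl also stand in the list of fatty acid oxidation below. Which cells the changes came from was not tested. Spp1 encodes osteopontin, a secreted protein that holds and attracts macrophages. It read 42426, 17339.6 and 31423 on the 2 d IR arrays and 2249.7, 1458 and 11327 on the 7 d IR arrays, 7.98-fold lower at 7 d (log2 change -3.00, SE 0.53, adjusted p = 0.0054). The days did not overlap, though 7 d IR 48 stayed far above its group. Spp1 also read lower on the 7 d sham arrays (2647, 1589 and 1416) than on the 2 d sham arrays (5748, 10515 and 9907), a sham change of -2.10 (adjusted p = 0.196).

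Fabp5, a carrier of fatty acids in macrophages, read 15824, 9225 and 12672 at 2 d and 6133, 5804 and 5252 at 7 d of reperfusion (log2 change -1.08, SE 0.17, adjusted p = 0.00287). The signals at 7 d lay close together, and overlapped the 2 d sham range of 5230.4 to 5964. Plin2, which coats lipid droplets, read 9434, 8837 and 7222 at 2 d and 4108, 4921 and 5421 at 7 d (log2 change -0.79, SE 0.13, adjusted p = 0.00336). All 3 of its 7 d IR signals lay below every sham array, which read 5919.6 to 7309.9 at 2 d and 7158 to 7506 at 7 d. Hmox1 (haem oxygenase 1) breaks down the haem of engulfed red cells. It read 17004, 7157 and 7857 at 2 d and 4378, 3020.3 and 4372 at 7 d (log2 change -1.31, SE 0.31, adjusted p = 0.0313), and its call was lost without 7 d IR 44, 47 or 48 or 2 d IR 69 (adjusted p from 0.0617 to 0.136). Gpnmb, a glycoprotein of debris-laden macrophages, and Lgals3 (galectin-3), a lectin of activated macrophages, missed the threshold, with log2 changes of -1.12 (adjusted p = 0.0992) and -0.83 (adjusted p = 0.0846). Lgals3 read 30713, 17667 and 23439.8 at 2 d and 13326, 14090.1 and 11894 at 7 d, days that did not overlap, and it passed without 7 d sham 82 (adjusted p = 0.0105). Apoe, a lipid carrier, was the member that rose (log2 change 0.98, SE 0.20, adjusted p = 0.0144), a call lost without 7 d IR 48 or 2 d IR 73 or 76 (adjusted p from 0.0604 to 0.0785).

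**Figure D1:**
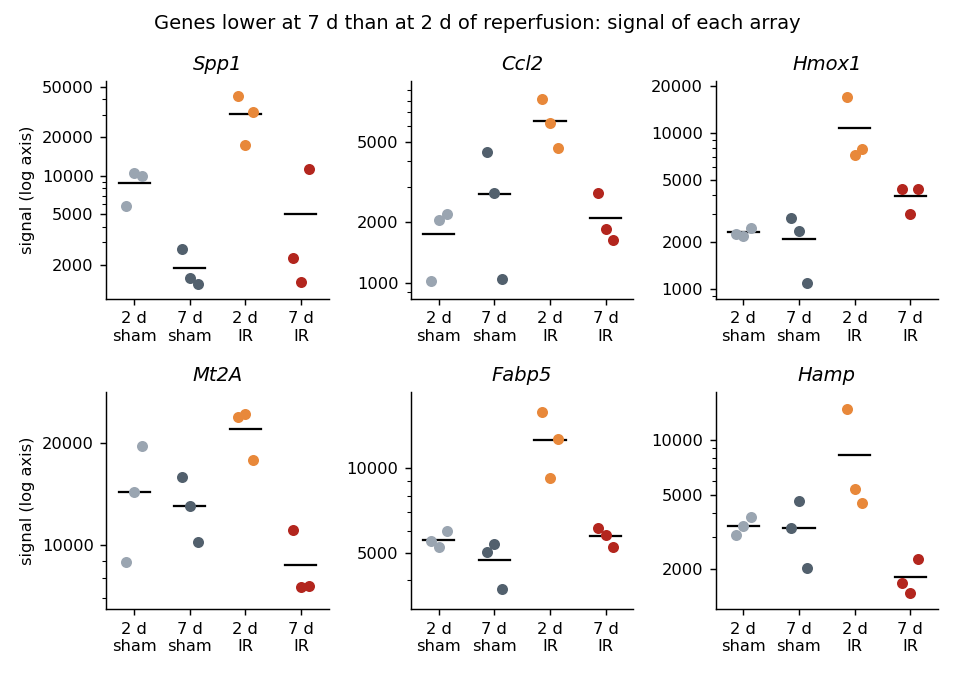
Signal of each array on a log axis for 6 genes lower at 7 d than at 2 d of reperfusion; points are arrays and bars are group means (n = 3). The 2 d IR arrays lie above the 7 d IR arrays in every panel, and the 7 d IR arrays of Spp1 are spread the widest for a group (1458 to 11327).

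Some genes of chemokines and their receptors changed. Of 24 measured, 2 rose and 1 fell (median -0.03, against 0.30 in sham hearts), where 2.62% of all genes rose and 1.14% fell. Ccl2, which recruits monocytes through the receptor CCR2, read 8187, 6165 and 4652 at 2 d and 2798, 1856 and 1625 at 7 d (log2 change -1.51, SE 0.39, adjusted p = 0.0447). Its IR arrays did not overlap, and all 3 at 2 d lay above every sham array (1021 to 2207 at 2 d and 1042 to 4434 at 7 d). The call was lost without 7 d IR 44, 47 or 48, 2 d IR 69, 73 or 76, 7 d sham 81 or 2 d sham 72 or 74 (adjusted p from 0.0536 to 0.139). Cxcl13, which attracts B cells, moved the other way, from 629.5, 495 and 497 to 8379.9, 2666 and 1966 (log2 change 2.36, SE 0.43, adjusted p = 0.00592), with a sham change of 2.12 (adjusted p = 0.112). Ackr3, a scavenging receptor for CXCL12, read 2229, 2077 and 2038 and then 4154, 3661 and 3889 (log2 change 0.83, SE 0.12, adjusted p = 0.00179). Cxcl12 itself, which holds progenitor and immune cells in tissue, changed by 0.52 (adjusted p = 0.0634) on its brightest probe set, but by 1.53 (adjusted p = 0.00477) and 2.03 (adjusted p = 0.00355) on its other probe sets. The count of chemokine genes that rose was 4 without 7 d IR 48.

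Of 32 measured cytokines and receptors, 1 rose and 0 fell, where 2.62% of all genes rose and 1.14% fell. The gene called was Tnfrsf11b (osteoprotegerin), a decoy receptor of the tumour necrosis factor family (log2 change 1.68, SE 0.38, adjusted p = 0.0227), which passed the filter only with 7 d IR, a call lost without 7 d IR 44 or 47 or 2 d IR 73 or 76 (adjusted p from 0.0719 to 0.0985). Il6, a cytokine of the acute phase, read 859.6, 424 and 505 at 2 d and 1046, 180.0 and 109 at 7 d (log2 change -0.56, SE 0.50, adjusted p = 0.646). The 7 d IR arrays split, with 44 above every 2 d IR array, and 47 and 48 below them all. Cxcl1, a neutrophil chemokine, read 2428, 1276 and 1072 at 2 d and 1967, 462 and 269.7 at 7 d, again with 7 d IR 44 far above its group (log2 change -0.96, SE 0.51, adjusted p = 0.386). The 95% interval of the change ran from -1.62 to 0.50 for Il6, from -2.06 to 0.13 for Cxcl1 and from -0.35 to 1.08 for Il1b (interleukin-1 beta). Of the 32 cytokines and receptors, 1 fell without 2 d IR 69, and 1 fell without 7 d sham 82.

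Several complement genes rose. Of 14 measured, 7 rose and 0 fell (2 were lower at an unadjusted p under 0.05), with a median change of 0.95 in IR and 0.68 in sham hearts. Without 7 d sham 82, 8 rose and 1 fell, and without 2 d IR 69, 6 rose and 0 fell. C3 read 956, 778 and 692 at 2 d and 8906, 8899.7 and 3056 at 7 d of reperfusion (log2 change 2.69, SE 0.40, adjusted p = 0.00179). It read nearly as high in 7 d sham hearts (3277, 9357 and 2998), where its change of 2.75 (adjusted p = 0.0216) was also called. C1qa, C1qb and C1qc encode the chains of C1q, which tags debris for uptake and is made largely by macrophages. C1qa read 3245, 2577 and 3031 at 2 d and 8790.3, 13271 and 7129 at 7 d (log2 change 1.62, SE 0.22, adjusted p = 0.00144). All 3 signals at 7 d lay above every sham array, where the change was 1.01 (adjusted p = 0.137). C1qb and C1qc rose by 1.26 and 1.03; the call of C1qb was lost without 7 d IR 47 or 2 d IR 76 (adjusted p from 0.0659 to 0.0674) and that of C1qc without 7 d IR 47 or 2 d IR 69 or 73 (adjusted p from 0.0791 to 0.133). Serping1, the inhibitor of the C1 complex, and Cfd, which starts the alternative pathway, rose by 1.08 and 1.35 (adjusted p = 0.00607 and 0.00259), against 1.01 and 0.83 in sham hearts.

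The C1q genes also belong to a list of 15 genes of resident and alternatively activated macrophages, 4 of which rose (the C1q chains and Igf1, and 2 without 7 d IR 47) with a median of 0.48 (sham 0.35). Of 23 general markers of macrophages and monocytes, 0 were called by limma (1 higher and 0 lower at an unadjusted p under 0.05). With 2 d IR 69 and 7 d sham 82 left out, 1 was called higher. The mean log2 level of these markers was taken as the distance above the 2 d sham mean. It was 0.58 to 1.32 on the 2 d IR arrays and 0.80 to 1.06 on the 7 d IR arrays. Cd68, a lysosomal marker of macrophages, changed by -0.37 (adjusted p = 0.695), and Lyz2 (lysozyme) by 0.03 (adjusted p = 0.956). In whole tissue, fewer cells of a type and less RNA per cell cannot be told apart.

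S100a9 and S100a8, calcium-binding proteins that fill the cytoplasm of neutrophils, rose. S100a9 read 5330.2, 4215 and 2912 at 2 d and 17896, 10467 and 9268 at 7 d (log2 change 1.53, SE 0.34, adjusted p = 0.0233). In sham hearts it read 1218, 1249.7 and 2225 at 2 d and 7699, 12064 and 4053 at 7 d, a change of 2.13 (adjusted p = 0.033) that was also called. The IR call of S100a9 was lost without 7 d IR 44 or 47 or 2 d IR 73 or 76 (adjusted p from 0.053 to 0.108), and that of S100a8 (log2 change 1.72, SE 0.43, adjusted p = 0.0388) without 7 d IR 44 or 47, 2 d IR 69, 73 or 76, 7 d sham 80 or 2 d sham 71 or 74 (adjusted p from 0.0505 to 0.147). Of 10 neutrophil markers on the array, 4 passed the filter; those beside S100a8 and S100a9, Lcn2 and Il1r2, changed by 0.13 (adjusted p = 0.948) and 0.33 (adjusted p = 0.826). Lbp read 1343, 721 and 904 at 2 d and 14566, 6776 and 4393 at 7 d (log2 change 2.75, SE 0.42, adjusted p = 0.00232), with 3139, 4954 and 1466 in 7 d sham hearts. Of 10 lymphocyte markers 1 rose and 0 fell (median 0.14, sham 0.07), where 2.62% of all genes rose. The marker that rose was Cd4 (log2 change 0.88, SE 0.19, adjusted p = 0.0182). Its call was lost without 7 d IR 47 or 2 d IR 76 (adjusted p from 0.0892 to 0.0917). Of 18 genes of antigen presentation and 23 genes induced by interferon, limma called 0 (4 and 4 higher at an unadjusted p under 0.05). Without 2 d IR 69, 1 gene of antigen presentation was called higher. Cd74, the chaperone of class II molecules, changed by 0.34 (adjusted p = 0.175).

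Hepcidin and a metallothionein fell, and ceruloplasmin rose. Hamp encodes hepcidin, a peptide that blocks the export of iron from cells. It read 14705, 5427 and 4557 at 2 d and 1689.5, 1497 and 2284 at 7 d (log2 change -1.88, SE 0.35, adjusted p = 0.00641). The highest 2 d IR value was that of 69; the 2 d and 7 d IR arrays did not overlap, and only 7 d IR 48 reached the sham range (2031 to 4649 at 7 d). Its sham change was -0.10 and the difference between the changes was -1.79 (adjusted p = 0.413). Mt2A, whose upstream sequence is given above, read 23932, 24354 and 17862 at 2 d and 11145, 7556 and 7582 at 7 d (log2 change -1.32, SE 0.24, adjusted p = 0.00659). The days did not overlap, while the 2 d sham arrays were spread from 8961 to 19689. Ceruloplasmin (Cp), a copper-carrying oxidase that lets iron leave cells, rose from 978, 979 and 1247 to 2847, 2201 and 2920.0 (log2 change 1.17, SE 0.14, adjusted p = 0.000686), as did its other probe sets (1.34 and 1.16). Of 17 measured genes of haem and iron, 1 (Cp) rose and 2 (Hamp and Hmox1) fell, the latter count being 1 without 7 d IR 44 or 47 or 2 d IR 69.

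Most genes of cell division read slightly lower at 7 d, but none passed the threshold. Of 46 measured genes of the cell cycle and DNA replication, limma called 0 (with 0 higher and 9 lower at an unadjusted p under 0.05), but 42 had a negative change, with a median of -0.28 in IR and 0.03 in sham hearts. Over all genes 4113 of 7720 were negative. Cdk1, the kinase of mitosis, changed by -0.48 (adjusted p = 0.467), and Mki67, present only in dividing cells, by -0.11 (adjusted p = 0.935) (95% interval -0.89 to 0.68). The mean level of the list was 0.67, 0.30 and 0.43 above the 2 d sham mean on the 2 d IR arrays and 0.35, 0.23 and 0.03 on the 7 d IR arrays, so that the days overlapped. Limma also called 0 of 9 tubulins and 0 of 52 genes of the actin cytoskeleton (1 lower among the tubulins, and 6 higher and 2 lower in the cytoskeleton, at an unadjusted p under 0.05). The count of actin cytoskeleton genes that rose was 1 without 2 d IR 69 and 2 with 7 d sham 82 also left out.

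Most measured collagen genes rose. Of 8 measured fibrillar collagens, whose chains form the load-bearing fibres of scar, 5 rose, counting Col5a3, and 0 fell (median 1.27, sham 0.61). Of 12 network, beaded-filament and fibre-associated collagens, 8 rose and 0 fell (median 0.80, sham 0.34). Col1a1, a chain of type I collagen, read 15306, 9778 and 14921 at 2 d and 54499.5, 54916 and 38432 at 7 d (log2 change 1.88, SE 0.33, adjusted p = 0.00467). Its 7 d IR arrays lay above all 9 others, and its sham change was 1.58 (adjusted p = 0.112). Col1a2, its partner chain, read 16376, 9826 and 15298 and then 47537, 50944 and 31512 (log2 change 1.64, SE 0.33, adjusted p = 0.0127); this call was lost without 7 d IR 47 or 2 d IR 73 (adjusted p from 0.0607 to 0.0732), while its other probe set changed by 1.97 (adjusted p = 0.00235). Col3a1, the more flexible fibre of early scar, rose from 24105, 21414 and 24837 to 50052, 62738 and 45912 (log2 change 1.16, SE 0.19, adjusted p = 0.00279).

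Col5a3, a type V chain that sets fibre diameter, read 461, 53.6 and 135 at 2 d and 1554, 1818 and 909.9 at 7 d. The 7 d IR arrays lay above all 9 others, and the sham arrays read 62.3 to 230.5 at 2 d and 53.9 to 147 at 7 d. It passed the filter only with 7 d IR, and its other levels are too low for an exact change. Col5a2 rose by 1.39 (adjusted p = 0.0121), a call lost without 7 d IR 44 or 2 d IR 73 (adjusted p from 0.0505 to 0.0683); Col5a1 changed by 0.74 (adjusted p = 0.15) on its brightest probe set and by 1.30 (adjusted p = 0.0253) on the other. Type VI collagen, a beaded filament around cells, rose in Col6a1, from 3994, 3499 and 4212 to 11968, 14833 and 10901 (log2 change 1.63, SE 0.16, adjusted p = 0.00022), and in Col6a2 (log2 change 1.73, SE 0.28, adjusted p = 0.00301), and Col6a3 changed by 0.70 (adjusted p = 0.11). Col14a1, which binds the surface of fibres, and Col8a2, a short-chain collagen, rose by 1.71 and 1.59 (adjusted p = 0.000374 and 0.0119), and Col8a2 lost its call without 7 d IR 44 or 48 (adjusted p from 0.0595 to 0.0604). Col4a1, of basement membranes, rose by 0.81 (adjusted p = 0.018), a call lost without 7 d IR 44 or 47 or 2 d IR 73 or 76 (adjusted p from 0.0683 to 0.0814). Col8a1 changed by 0.24 (adjusted p = 0.801). The counts depended on single arrays: 3 without 2 d IR 73 for fibrillar and 4 without 7 d IR 44 or 47 or 2 d IR 76 and 5 without 7 d IR 48 or 2 d IR 69 or 73 for other collagens.

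Some enzymes that process collagen rose. Of 25 measured, 9 rose and 0 fell (median 0.50, sham 0.14). Loxl1, a lysyl oxidase that cross-links elastin, read 1513, 2993 and 2044 at 2 d and 7567, 6847 and 8556 at 7 d (log2 change 1.76, SE 0.21, adjusted p = 0.000679). Its 7 d IR arrays lay far above all 9 others; the sham change was 0.05 and the difference between the changes 1.71 (adjusted p = 0.151). Lox, the founding enzyme of that family, read 2677, 1964 and 2082 and then 7659.7, 6816 and 4715 (log2 change 1.42, SE 0.33, adjusted p = 0.028), a call lost without 7 d IR 44 or 47 or 2 d IR 73 or 76 (adjusted p from 0.0955 to 0.115), and its other probe set changed by 0.91 (adjusted p = 0.231). Pcolce, which speeds removal of the procollagen tail, rose (log2 change 1.27, SE 0.22, adjusted p = 0.00434), as did Fap, a protease of activated fibroblasts (log2 change 1.47, SE 0.19, adjusted p = 0.000839). Serpinh1 (Hsp47), the collagen chaperone of the endoplasmic reticulum, rose by 0.59 (adjusted p = 0.0415), a call lost without 7 d IR 44 or 47, 2 d IR 73 or 76, 7 d sham 80 or 2 d sham 71, 72 or 74 (adjusted p from 0.0507 to 0.164). P4hb and Tgm2, a subunit of prolyl hydroxylase and a cross-linking transglutaminase, changed by 0.25 (adjusted p = 0.417) and 0.01 (adjusted p = 0.974). The count of 9 was 4 without 7 d IR 44 and 5 without 2 d IR 73.

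**Figure D2:**
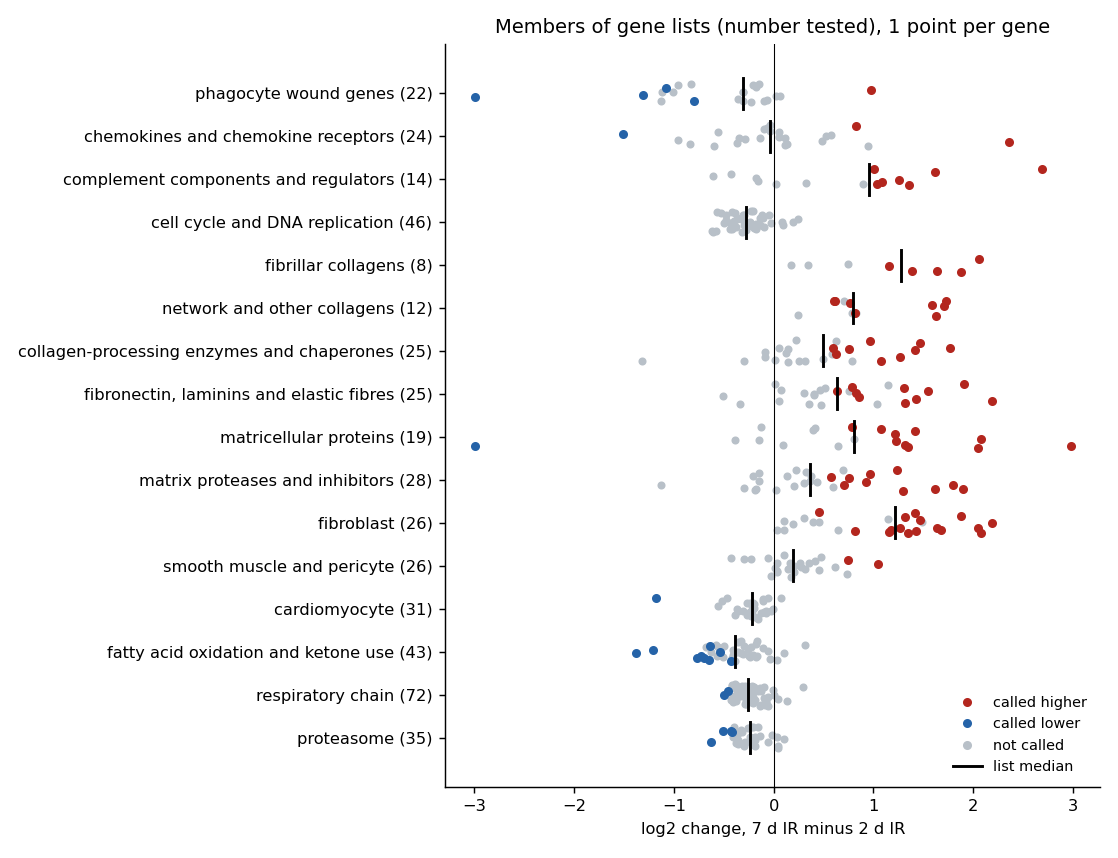
Log2 change from 2 to 7 d of reperfusion of the measured members of 16 gene lists, with the number tested in brackets; 1 point per gene, red called higher, blue called lower, grey not called, and a black bar at the list's median. The matrix and fibroblast lists lie to the right of 0 (fibrillar collagens at 1.27), and the cardiomyocyte, fatty acid oxidation, respiratory chain and proteasome lists to the left (-0.39 for fatty acid oxidation).

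Of 19 measured matricellular genes, 10 rose, counting Tnn and Matn2 (matrilin-2), which passed the filter only with 7 d IR, and 1, Spp1, fell (median 0.80, sham 0.02). Postn, the periostin gene shown above, read 8133, 4304 and 4724 at 2 d and 29201, 22747 and 20564 at 7 d (log2 change 2.08, SE 0.32, adjusted p = 0.00232). The 7 d sham arrays (11856, 13655 and 4519.5) also lay above the 2 d sham arrays (2068, 2492 and 2664), 82 by the least. Sparc, a collagen-binding protein needed for fibre assembly, read 14615, 16874 and 15780.4 and then 35528, 37184 and 27900.2 (log2 change 1.07, SE 0.16, adjusted p = 0.00179). Here the 2 d IR arrays lay within the range of the 6 sham arrays and the 7 d IR arrays above them all, with a sham change of -0.04; the difference between the changes was 1.11 (adjusted p = 0.224). Tnn (tenascin N) read 97.3, 41.6 and 48.8 at 2 d, below the offset of 195, and 4708, 1219 and 992 at 7 d, so that no exact change can be given. The signals at 7 d were spread, with 44 highest, and lay above all other arrays. Ccn5, of the same CCN family as connective tissue growth factor, and Fstl1, a follistatin-like glycoprotein, rose by 2.04 and 1.41 (adjusted p = 0.000839 and 0.0024). Tnc (tenascin C), a protein of the early wound, missed the threshold, at 2405, 2837 and 2192 at 2 d and 3144, 2656 and 2186 at 7 d (log2 change 0.09, SE 0.34, adjusted p = 0.941, 95% interval -0.65 to 0.82). The days overlapped, and all 6 IR arrays lay above all 6 sham arrays.

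Of 25 measured members of fibronectin, the laminins and elastic fibres, 10 rose, counting Ltbp2, and 0 fell (median 0.63, sham 0.17). Mfap4, a microfibril protein that binds elastin and collagen, read 3256, 3245 and 3769 at 2 d and 14878, 14919.9 and 19286 at 7 d (log2 change 2.19, SE 0.20, adjusted p = 0.000162). The 7 d IR arrays lay above all 9 others, and 2 d IR 69 and 73 lay below the lowest 2 d sham array (3565). Eln (elastin) read 1123, 1271 and 1502 and then 2941, 4883 and 4958 (log2 change 1.55, SE 0.23, adjusted p = 0.00179). Mfap5 and Dpt (dermatopontin), which joins collagen and decorin, rose by 1.43 and 1.32 (adjusted p = 0.00467 and 0.00276), and Ltbp2, a microfibril protein that passed the filter only with 7 d IR, by 1.90 (adjusted p = 0.0255), a call lost without 7 d IR 44 or 48 or 2 d IR 73 or 76 (adjusted p from 0.0531 to 0.115). Fn1 (fibronectin) read 10545, 7085 and 6354 at 2 d and 17614, 20128 and 15214 at 7 d. Its days did not overlap, yet it missed the threshold (log2 change 1.15, SE 0.33, adjusted p = 0.0765) and passed without 7 d sham 82 (adjusted p = 0.00148). The count of 10 was 5 without 2 d IR 73 or 76 and 6 without 7 d IR 44 or 47.

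Among 23 measured proteoglycans 7 rose and 0 fell (median 0.23). Lum (lumican), which spaces collagen fibres, rose (log2 change 1.17, SE 0.19, adjusted p = 0.00265), as did Gpc6, a glypican of the cell surface (log2 change 1.20, SE 0.17, adjusted p = 0.00179). Aspn (asporin), which binds transforming growth factor beta, rose by 1.37 (adjusted p = 0.0159), a call lost without 7 d IR 48 or 2 d IR 73 (adjusted p from 0.0536 to 0.0819). Bgn (biglycan) changed by 0.61 (adjusted p = 0.194), with days that did not overlap. The count was 4 without 7 d IR 47 or 2 d IR 76.

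Of 28 measured matrix proteases and their inhibitors, 10 rose, counting A2m, and 0 fell (median 0.36, sham 0.34). Mmp2, a gelatinase, read 3954, 4206 and 4364 at 2 d and 17402, 17337 and 13752 at 7 d (log2 change 1.90, SE 0.22, adjusted p = 0.00051). A second probe set of Mmp2 changed by -0.27 (adjusted p = 0.611). Mmp14, the membrane protease that activates MMP2, read 3413, 2544 and 2847 and then 12519, 10168 and 9362 (log2 change 1.80, SE 0.31, adjusted p = 0.00432), with a sham change of 1.65 (adjusted p = 0.0762). Ctsk (cathepsin K), which cuts collagen triple helices, and Serpinf1 (PEDF), which blocks vessel growth, rose by 1.61 and 1.30 (adjusted p = 0.00234 and 0.000744). A2m, a broad protease trap of plasma, passed the filter only with 7 d IR (log2 change 1.24, SE 0.23, adjusted p = 0.00699). Timp1, an inhibitor of metalloproteinases, read 15875, 11350.2 and 6854 at 2 d and 18524, 14626 and 7041 at 7 d (log2 change 0.21, SE 0.47, adjusted p = 0.893, 95% interval -0.80 to 1.21), with the days overlapping.

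**Figure D3:**
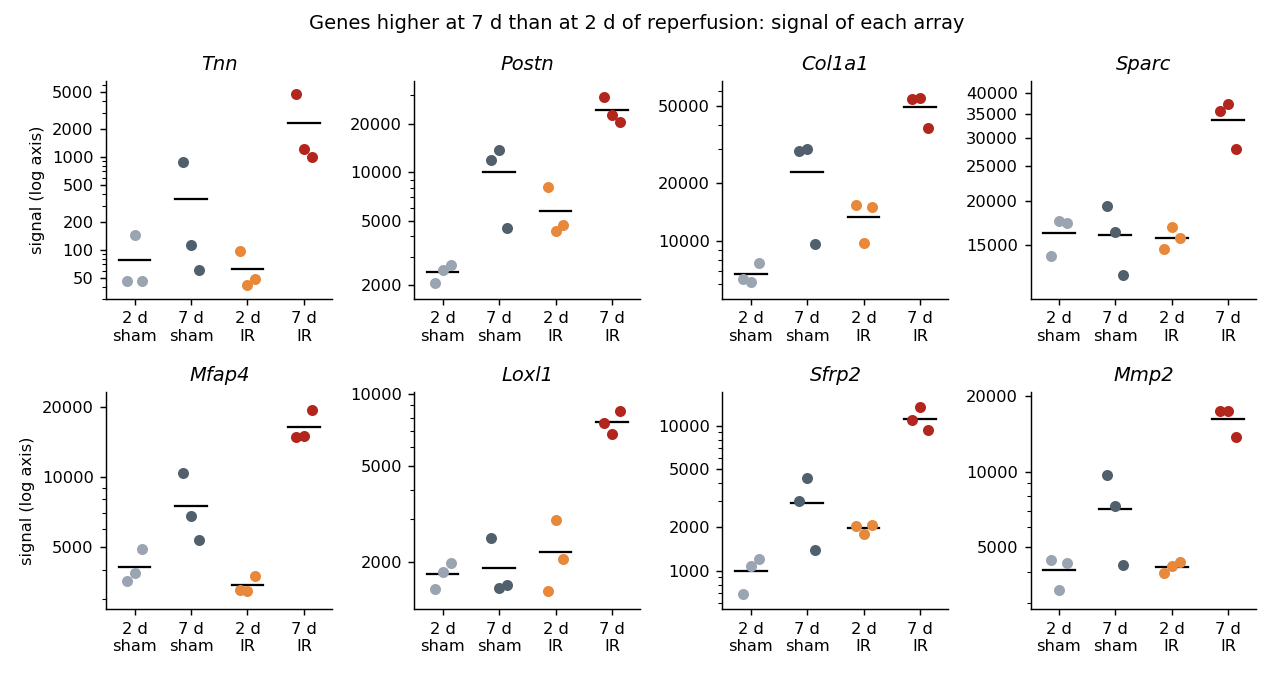
Signal of each array on a log axis for 8 matrix genes higher at 7 d than at 2 d of reperfusion; points are arrays and bars are group means (n = 3). The 7 d IR arrays lie above all others in every panel, Postn and Col1a1 also read higher on the 7 d than on the 2 d sham arrays, by the least on 82 (4519.5 and 9642), and Sparc read 12371 to 19346 on the 7 d sham arrays.

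Of 26 measured fibroblast markers, 16 rose and 0 fell (median 1.22, sham 0.44). Their mean log2 level above the 2 d sham mean was 0.23 to 0.37 on the 2 d IR arrays, 1.32 to 1.48 on the 7 d IR arrays and 0.03 to 0.78 on the 7 d sham arrays. Many of these markers are themselves matrix genes, so that the list is no separate evidence, and its part in the rise of matrix genes was not tested. Islr, a leucine-rich membrane protein of mesenchymal cells, rose by 1.67 (adjusted p = 0.00195); Vim (vimentin), an intermediate filament shared with leukocytes and endothelium, changed by 0.19 (adjusted p = 0.621). The contractile genes Acta2 and Tagln of myofibroblasts were not called. Acta2 (smooth muscle actin) read 7806, 7630.4 and 8105 at 2 d and 10751, 8338 and 8337 at 7 d (log2 change 0.21, SE 0.24, adjusted p = 0.747, 95% interval -0.31 to 0.72), and Tagln (transgelin) changed by 0.36 (adjusted p = 0.692). Of 26 markers of smooth muscle, pericytes and contractile myofibroblasts, 2 rose (median 0.19), where 2.62% of all genes rose. The count was 1 without 7 d IR 44, 47 or 48, 2 d IR 73 or 76 or 2 d sham 71. Tpm1, a member of this list, changed by -0.06 on its brightest probe set and by 0.84 (adjusted p = 0.0462) on another. Its remaining tested probe sets changed by -0.04, -0.05 and -0.22. The 2 genes counted as rising, each by its brightest probe set, are known from pericytes. Rgs5 read 3268, 3804 and 3221 and then 8946, 6031 and 7069 (log2 change 1.04, SE 0.16, adjusted p = 0.00229), above all sham arrays, while Mcam rose by 0.74 (adjusted p = 0.0381), lost its call without 7 d IR 44, 47 or 48, 2 d IR 73 or 76 or 2 d sham 71 (adjusted p from 0.0524 to 0.157) and changed by 0.11 on its other probe set.

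**Figure D4:**
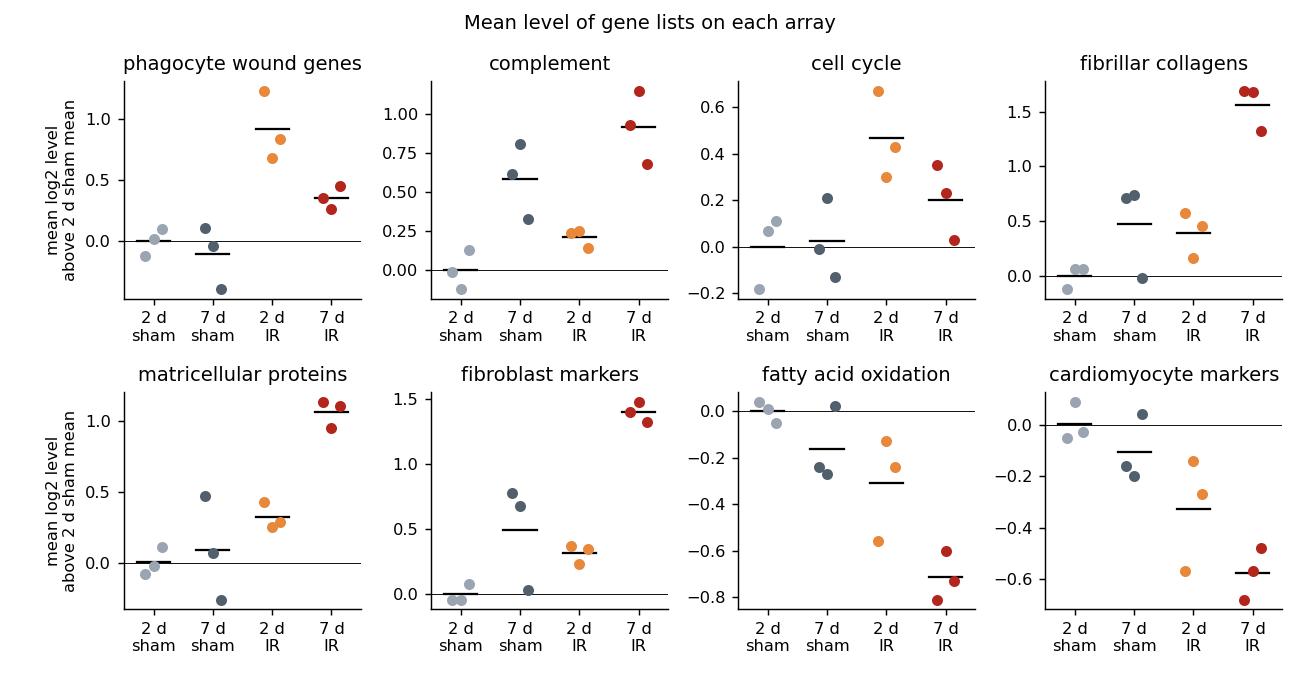
Mean log2 level of 8 gene lists on each array, as the distance above the mean of the 2 d sham arrays; points are arrays and bars are group means (n = 3). Phagocyte wound genes are highest at 2 d of reperfusion, fibroblast markers and fibrillar collagens at 7 d (1.32 to 1.48 for fibroblast markers), and cardiomyocyte markers have their lowest mean at 7 d of reperfusion (-0.68 to -0.48), where 1 array of 2 d IR (-0.57) overlaps them.

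Of 26 genes of the transforming growth factor beta (TGF-beta) and activin pathway, 3 rose and 0 fell (median 0.20). All of these belong to the LTBP family of microfibril proteins, some of which store latent TGF-beta in the matrix. Besides Ltbp2, which passed the filter only with 7 d IR, Ltbp3 rose by 0.86 (adjusted p = 0.0244) and Ltbp1 by 0.63 (adjusted p = 0.0474). The call of Ltbp3 was lost without 7 d IR 44 or 47 or 2 d IR 69 or 76 (adjusted p from 0.0699 to 0.0946) and that of Ltbp1 without 7 d IR 44, 47 or 48, 2 d IR 73 or 76, 7 d sham 80 or 81 or 2 d sham 71 or 74 (adjusted p from 0.053 to 0.196). The ligand gene Tgfb1 changed by -0.12 (adjusted p = 0.893), and Ccn2 (connective tissue growth factor), a target, by 0.42 (adjusted p = 0.44). The count of 3 was 0 without 2 d IR 76 and 1 without 7 d IR 44, 47 or 48 or 2 d IR 73. Of 18 genes of the bone morphogenetic protein (BMP) pathway 4 rose (1 without 7 d IR 48 or 2 d IR 73 or 76 and 2 without 7 d IR 44 or 2 d sham 74). Beside Fstl1 these were Bmp1, a protease that trims procollagen (0.75, adjusted p = 0.0138), a call lost without 7 d IR 44 or 48 or 2 d IR 73 or 76 (adjusted p from 0.0561 to 0.0698); Nbl1, a BMP antagonist (1.00, adjusted p = 0.0488), a call lost without 7 d IR 47 or 48, 2 d IR 69, 73 or 76 or 2 d sham 71, 72 or 74 (adjusted p from 0.0528 to 0.205); and Id3, a BMP target (0.63, adjusted p = 0.0369), a call lost without 7 d IR 44, 47 or 48, 2 d IR 73 or 76 or 2 d sham 74 (adjusted p from 0.0527 to 0.171).

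Of 16 measured Wnt genes 4 rose and 0 fell (median 0.28; 2 without 7 d IR 48 or 2 d IR 73 or 76). Sfrp2, a secreted frizzled-related protein, read 2047, 1777 and 2065 at 2 d and 10885, 13476 and 9285 at 7 d (log2 change 2.39, SE 0.29, adjusted p = 0.000686). The 7 d IR arrays lay above all others, with 3002, 4375 and 1389 on the 7 d sham arrays. Sfrp4, of the same family, read 480.4, 482 and 284 and then 1642, 5945 and 2135 (log2 change 2.30, SE 0.42, adjusted p = 0.00619), but a second probe set changed by -0.02 (adjusted p = 0.985). Frzb, a further inhibitor, rose by 0.80 (adjusted p = 0.0387), a call lost without 7 d IR 44 or 48, 2 d IR 73 or 76 or 2 d sham 71 (adjusted p from 0.0529 to 0.156). Fzd2, a Wnt receptor, rose by 0.93 (adjusted p = 0.0382), a call lost without 7 d IR 47 or 48 or 2 d IR 73 or 76 (adjusted p from 0.116 to 0.153).

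Of 39 growth factor and angiogenesis genes 8 rose and 0 fell (median 0.16; 5 without 2 d IR 69 or 76). Igf1, a survival factor for muscle, read 3751, 3629 and 3862 at 2 d and 15944, 11096 and 8857 at 7 d (log2 change 1.58, SE 0.25, adjusted p = 0.00235). The 2 d IR arrays lay just above the 2 d sham arrays (3150.0 to 3540.1), and the sham change was 0.98 (adjusted p = 0.193). Ptn (pleiotrophin), a heparin-binding growth factor, read 1143, 989 and 1528 and then 4164, 4457 and 4698 (log2 change 1.73, SE 0.25, adjusted p = 0.00179). Igfbp4, which binds IGF1, and Angptl2, an angiopoietin-like protein, rose by 1.82 and 0.93 (adjusted p = 0.00468 and 0.0061). C1qtnf3, a secreted adipokine-like protein, passed the filter only with 7 d IR and changed by 1.82 (adjusted p = 0.00523). Of 20 endothelial markers 2 rose and 0 fell (median 0.17, sham 0.15), where 2.62% of all genes rose. Vcam1, a leukocyte adhesion molecule, read 1689, 1410.5 and 1691 at 2 d and 5743, 3299 and 3043 at 7 d (log2 change 1.19, SE 0.23, adjusted p = 0.00889), and Ramp2, a partner of the adrenomedullin receptor, rose with it (log2 change 0.59, SE 0.11, adjusted p = 0.00927).

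Some genes of fatty acid oxidation fell. Of 43 measured genes of fatty acid oxidation and ketone use, 9 fell and 0 rose (median -0.39, sham -0.17). Eci1, an isomerase for unsaturated chains, read 15146, 23576 and 22303 at 2 d and 8133, 10191 and 7512 at 7 d (log2 change -1.21, SE 0.18, adjusted p = 0.00195). Its 7 d IR arrays lay below all 9 others. Acot2, a mitochondrial thioesterase, read 687, 2182 and 778 and then 190.2, 364 and 341 (log2 change -1.38, SE 0.33, adjusted p = 0.0312), a call lost without 7 d IR 44, 47 or 48 or 2 d IR 73 (adjusted p from 0.0635 to 0.119). Crat, which shuttles acetyl groups, fell (-0.77, adjusted p = 0.0113), a call lost without 2 d IR 73 (adjusted p = 0.0653). Ech1 and Acaa2, enzymes of the oxidation spiral, fell (-0.73, adjusted p = 0.0313 and -0.70, adjusted p = 0.0419), calls lost without 7 d IR 44 or 48 or 2 d IR 73 or 76 (adjusted p from 0.0928 to 0.154) and without 7 d IR 44 or 48, 2 d IR 73 or 76 or 2 d sham 71 or 72 (adjusted p from 0.0544 to 0.176). Acadm and Fabp3, the medium-chain dehydrogenase and the heart's fatty acid carrier, changed by -0.24 (adjusted p = 0.427) and -0.26 (adjusted p = 0.388). The count of 9 was 2 without 7 d IR 48 or 2 d IR 73, 3 without 7 d IR 44 or 2 d IR 76 and 17 without 2 d IR 69. It was 23 with both 2 d IR 69 and 7 d sham 82 left out.

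Other mitochondrial lists held few calls. Of 72 respiratory chain genes 2 fell and 0 rose, with 33 lower and 1 higher at an unadjusted p under 0.05 (median -0.26, sham -0.13). Over all 7720 genes, 1.14% fell, and 692 were lower and 655 higher at that unadjusted p. Those that fell, Ndufa7 and Ndufa3 of complex I, changed by -0.50 (adjusted p = 0.0312) and -0.46 (adjusted p = 0.0424). The count was 0 without 7 d IR 44 or 48 or 2 d IR 73 or 76, 1 without 7 d IR 47, 7 d sham 81 or 2 d sham 71, 72 or 74, 4 without 7 d sham 82 and 11 without 2 d IR 69. Among 26 genes of pyruvate entry and the citric acid cycle, Pdp1, the phosphatase that activates pyruvate dehydrogenase, fell (log2 change -0.70, SE 0.13, adjusted p = 0.00641; sham -0.60); the count was 4 without 7 d sham 82 and 5 without 2 d IR 69. With both of these arrays left out, 23 respiratory chain genes and 8 of pyruvate entry and the citric acid cycle fell. Glycolysis held 0 calls by limma among 31 genes (4 lower at an unadjusted p under 0.05). With 2 d IR 69 and 7 d sham 82 left out, 1 glycolysis gene fell. Pnpla2, the first lipase of triglyceride stores, and Aqp7, a glycerol channel, fell (-0.91, adjusted p = 0.00235 and -1.10, adjusted p = 0.0224), and Aqp7 lost its call without 7 d IR 44 or 48 or 2 d IR 73 or 76 (adjusted p from 0.0597 to 0.118).

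Of 31 measured cardiomyocyte markers, 30 had a negative change and 1 fell (median -0.21, sham -0.10; 2 without 7 d sham 82 and 4 without 2 d IR 69, and 7 with both left out). Their mean log2 level relative to the 2 d sham mean was -0.57, -0.14 and -0.27 on the 2 d IR arrays and -0.68, -0.57 and -0.48 on the 7 d IR arrays, the lowest 2 d IR value being that of 69. Their part in the fall of metabolic genes was not tested. Mypn (myopalladin), a Z-disc protein, was the member that fell, from 2699.8, 4654 and 4033 to 1653, 1609.5 and 1342 (log2 change -1.18, SE 0.18, adjusted p = 0.00228). Its 7 d IR arrays lay below all 9 others, with a sham change of -0.16 (adjusted p = 0.816). Itga7, the laminin receptor of muscle, fell (log2 change -0.98, SE 0.14, adjusted p = 0.00179), and its other probe set changed by -0.90 (adjusted p = 0.00336). Tnni3 (troponin I) and Atp2a2 (the calcium pump SERCA2) changed by -0.16 (adjusted p = 0.54) and -0.12 (adjusted p = 0.649). Mybpc2, a myosin-binding protein, fell from 2954, 1709 and 2481 to 1258, 955 and 1010.4 (adjusted p = 0.00604), and Cda (cytidine deaminase) fell as well (-1.12, adjusted p = 0.00195). Sphkap, a kinase-anchoring protein, fell (-1.07, adjusted p = 0.0138), a call lost without 7 d IR 44 or 47 or 2 d IR 73 (adjusted p from 0.062 to 0.0752). Pik3c2g, a lipid kinase, fell (-1.34, adjusted p = 0.0255), a call lost without 7 d IR 44, 47 or 48 or 2 d IR 73 or 76 (adjusted p from 0.0588 to 0.124).

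Of the fetal peptide, actin and myosin genes given below, none was called. Over all genes, 2.62% rose and 1.14% fell. Of 20 fetal and stress-induced genes 3 fell and 0 rose (median 0.18; 1 without 7 d IR 44 or 47 or 2 d IR 69 or 73). Beside Mt2A, those that fell were Hspb1, a small heat shock protein (-0.84, adjusted p = 0.0283), a call lost without 7 d IR 44 or 47 or 2 d IR 69 or 73 (adjusted p from 0.0797 to 0.133), and Xirp1, of the intercalated disc (-0.69, adjusted p = 0.0394), a call lost without 7 d IR 44 or 47, 2 d IR 69, 73 or 76 or 2 d sham 71, 72 or 74 (adjusted p from 0.0527 to 0.14). Nppa (atrial natriuretic peptide) read 12517, 18299 and 18636 at 2 d and 25282, 22644 and 45583 at 7 d (log2 change 0.86, SE 0.25, adjusted p = 0.0789). The 2 d IR arrays lay below all others, yet the change missed the threshold. Nppb (brain natriuretic peptide), Acta1 (skeletal actin) and Myh7 (the fetal myosin heavy chain) changed by 0.43 (adjusted p = 0.33), 0.29 (adjusted p = 0.32) and -0.20 (adjusted p = 0.42). Myh6 (the adult myosin heavy chain) changed by -0.22 (adjusted p = 0.602) on its brightest probe set and by 0.82 (adjusted p = 0.0554) on the other. Of 8 atrial markers limma called 0 (3 higher and 1 lower at an unadjusted p under 0.05; median 0.67, sham 0.37).

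Some proteasome and stress genes fell, where 1.14% of all genes fell. Of 35 proteasome genes 4 fell and 0 rose, with 17 lower and 0 higher at an unadjusted p under 0.05 (median -0.24, sham -0.07). Psmd1, Psmb7, Psme1 and Psmc5, subunits or activators of the proteasome, changed by -0.63 (adjusted p = 0.0138), -0.50 (adjusted p = 0.0403), -0.42 (adjusted p = 0.0281) and -0.42 (adjusted p = 0.0281). The count was 0 without 7 d IR 47 or 2 d IR 76 and 1 without 7 d IR 44 or 48 or 2 d IR 73. Herpud1, of the endoplasmic reticulum stress response, fell (-0.79, adjusted p = 0.0313), a call lost without 7 d IR 44 or 48 or 2 d IR 73 or 76 (adjusted p from 0.0749 to 0.131). It and Hspb1 were the calls among 39 heat shock and stress genes (0 without 7 d IR 44 or 2 d IR 73 and 1 without 7 d IR 47 or 48 or 2 d IR 69 or 76). Casp6, an executioner caspase, rose from 168, 337 and 606 to 1191, 1049 and 674 (log2 change 1.09, SE 0.26, adjusted p = 0.0313), a call lost without 7 d IR 44 or 47 or 2 d IR 69 or 73 (adjusted p from 0.0829 to 0.128). Of 23 measured genes of the Bcl-2 family, caspases and mitophagy, 1 rose and 0 fell (median 0.07), where 2.62% of all genes rose. Bhlhe41, a clock repressor, fell (-0.82, adjusted p = 0.0173), a call lost without 7 d IR 47 or 2 d IR 69 (adjusted p from 0.0535 to 0.0868). The 40 cytosolic ribosomal protein genes held 0 calls by limma and 0 at an unadjusted p under 0.05 in either direction, with a median of -0.03.

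The remaining lists are given beside the share of all genes, of which 2.62% rose and 1.14% fell. Of 35 lysosomal genes 3 rose and 0 fell (median -0.01; 1 without 7 d IR 44 or 47 or 2 d IR 73 or 76), and of 25 immediate early genes, which answer stress within minutes, 2 rose and 0 fell (median 0.20; 0 without 7 d IR 48 or 2 d IR 73 and 1 without 7 d IR 44 or 47 or 2 d IR 76). Of 24 hypoxia-induced genes 1 rose (median 0.02; 0 without 7 d IR 44 or 47 or 2 d IR 73 or 76), and of 32 antioxidant and metallothionein genes 1 rose and 1 (Mt2A) fell (median -0.13; 0 without 7 d IR 44 or 47, 2 d IR 73 or 76 or 2 d sham 71, 72 or 74 for those that rose). Limma called 0 of 31 genes of calcium handling and ion channels (1 higher and 4 lower at an unadjusted p under 0.05, median -0.11). The count that fell was 1 without 2 d IR 69 and 2 with 7 d sham 82 also left out.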

How the data were processed

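Total RNA of 12 rat ventricle samples was measured on 1 array each. The deposited values are intensities, 1 MAS5 signal per probe set, per the submitters' processing notes; the MAS5 version is not given in the sources used here. The values show that the authors scaled all arrays to nearly the same trimmed mean, so a shift common to all transcripts cannot be seen. The table holds 15923 probe sets; leaving out 57 controls, the 10527 above their array's 40th percentile on at least 3 of the 12 arrays were tested as log2(signal + 195), computed here from the deposited signals. In limma 3.58.1 (R 4.3.3) 1 mean per group was fitted over all 12 arrays, which share 1 estimate of spread with 8 residual degrees of freedom, with eBayes and an intensity trend. The Benjamini-Hochberg adjustment ran over all probe sets tested; an adjusted p under 0.05 counts as called, and only called genes are said to rise or fall. The platform annotation gave 8936 tested probe sets 1 symbol, 251 several and 1340 none; the brightest probe set stands for each of 7720 genes, 7698 of them in the RefSeq table of build GRCr8.

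The members and lists were chosen with earlier results of these data known. Genes were named by rule: the 15 largest changes each way among genes whose days do not overlap, up to 5 called and 2 bright uncalled members of each list, genes with a called interaction, and a list of healing genes whatever their values. Of the latter, Mrc1, Cd163 and Thbs1 have no probe set named here, and Mmp9 did not pass the filter. Matn2 is named outside this rule, because it passed the filter only with 7 d IR. Alternatives were median centring, quantile normalization, offsets of 50 and 500, no filter or a 60th percentile filter, no intensity trend, array weights, the 6 IR arrays alone, each array left out, both arrays that lay apart left out, and other probe sets. The number of arrays limits the precision. The day and surgery of each sample come from its title; the series' design text names the 7 d sham group 2 times and the 2 d sham group not at all. Nothing in the sources gives a batch; the numbers of the 7 d IR titles (44, 47 and 48) lie apart from all others, and if they mark a batch, it and the day cannot be told apart.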

Additional observations from a re-analysis of the deposited data

Results flagged for a closer look

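Rpl37a, which encodes a ribosomal protein, was the gene whose change from 2 to 7 d differed between IR and sham hearts by limma's interaction, by 1.55 on the log2 scale (SE 0.21, adjusted p = 0.0287). The difference lay in the sham arrays. Rpl37a read 39104, 52874 and 55717 on the 2 d sham arrays and 16521, 13612 and 13025 on the 7 d sham arrays (log2 change -1.75, adjusted p = 7.67e-05), against 17841, 20270.3 and 20756 at 2 d and 18396, 14127 and 18857 at 7 d of reperfusion (log2 change -0.20, adjusted p = 0.565). All 3 of the 2 d sham arrays lay above the other 9. Rpl37a belongs to a large family with many near-identical copies, so that its probe set may read more than 1 gene. The interaction held 0 calls without any 1 of 7 d IR 44 or 48, 2 d IR 69, 73 or 76, 7 d sham 81 or 82, or 2 d sham 72 or 74, and 0 without a filter or an intensity trend.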

How the results depend on the processing

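Called counts moved by more than 1.5 times under these settings. For 7 d against 2 d of reperfusion, 363 probe sets became 577 with array weights and 556 with both arrays that lay apart left out, and 192 to 439 with 1 array left out; those higher (258) were 152 to 294 with 1 array left out. Those lower (105) were 52 without a filter, 51 without an intensity trend, 236 with array weights, 65 from the 6 IR arrays alone, 231 with both arrays left out and 40 to 147 with 1 array left out. The share higher, 71.1%, was 59.1% with array weights and 58.5% with both arrays left out; median centring gave 65.7% and quantile normalization 66.0%. In sham hearts, 8 became 1 without a filter, 5 with the 60th percentile filter, 2 without a trend, 25 with array weights, 83 with both arrays left out and 1 to 76 with 1 left out. The interaction's 1 became 0 without a filter, without a trend or with both arrays left out, 3 with array weights and 0 to 6 with 1 array left out. The cause was not tested.

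Of 107 called genes among the 222 chosen for naming, 57 passed in all 22 alternative fits and 0 changed sign; of the 115 not called, 34 changed sign and 20 passed in at least 1 fit. Another probe set had the opposite sign for the called Mmp2 (-0.27) and Sfrp4 (-0.02), and for the uncalled Tpm1 (0.84, adjusted p = 0.0462, against -0.06), Myh6 (0.82), Aqp1 (0.12), Mdh1 (0.06) and Pln (0.01). No paired analysis was possible because the groups share no replicate number. A probe set near background has a change that the offset shrinks, as for Tnn at 2 d.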
